A study of Rattus norvegicus with 16 samples.

Results

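The glucocorticoid receptor gene Nr3c1 and 7 genes around it were followed in rat liver: Hsd11b1, an enzyme that makes the active hormone inside cells, and 6 genes the receptor is known to switch on, Fkbp5, Tsc22d3, Sgk1, Klf9, Zbtb16 and Errfi1. They were taken by symbol, as a readout of surgical and septic stress, and all 8 were found among the 17055 genes counted in each library. Poly(A) RNA was sequenced from 16 libraries, each a pool of liver from 3 male Sprague-Dawley rats aged 10 weeks, 4 libraries a group. All rats were anesthetized, intubated, ventilated with oxygen and opened by celiotomy, and livers were taken 8 h afterwards. In the Isoflurane + sepsis group (libraries 1 to 4) the cecum was ligated and punctured under isoflurane, and in the isoflurane controls (libraries 5 to 8) it was left intact. In the Propofol + sepsis group (libraries 9 to 12) and the propofol controls (libraries 13 to 16) anesthesia was induced with ketamine and xylazine and kept up with propofol. The anesthetic and the induction drugs changed together and cannot be told apart. The labels name no sequencing batch, so a batch that changed with them could not be told apart either. No group went without anesthesia and surgery, so the controls are themselves operated animals.

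Glucocorticoids leave the adrenal cortex under the control of the brain and pituitary, and surgery and infection both raise them. In the cytosol the receptor is held by heat shock proteins. When it binds hormone it enters the nucleus, where it binds glucocorticoid response elements and turns genes on, or acts with other factors to turn inflammatory genes down. In liver it drives gluconeogenesis and amino acid breakdown. Fkbp5 is a co-chaperone that lowers the receptor's affinity for hormone and so closes a feedback loop, and Tsc22d3 (GILZ) carries part of the anti-inflammatory action. Sgk1 is a kinase that also answers serum and osmotic stress, Klf9 and Zbtb16 are transcription factors, and Errfi1 restrains the EGF receptor. Most of these genes answer other signals too.

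Promoters of 3 of the target genes that rose or fell in septic liver are shown because the receptor's own motif was looked for there. RefSeq windows on the GRCr8 build, matched by symbol, were found for 6 of the 8 members and gave 11 start sites. Each window held 300 bases, from 250 before the start site to 50 after it. The counts were made on the rn5 build, and these sequences say nothing about which start was used. Tsc22d3 and Sgk1 had other starts that are not shown, and most of those held no TATAAA. Of the Tsc22d3 starts, only the 1 shown held it. The bases before 1 start of each of 3 members read as follows, with the TATAAA letters of a TATA box in capitals where they occur.
Fkbp5, chr20:6543556-6543805, minus strand: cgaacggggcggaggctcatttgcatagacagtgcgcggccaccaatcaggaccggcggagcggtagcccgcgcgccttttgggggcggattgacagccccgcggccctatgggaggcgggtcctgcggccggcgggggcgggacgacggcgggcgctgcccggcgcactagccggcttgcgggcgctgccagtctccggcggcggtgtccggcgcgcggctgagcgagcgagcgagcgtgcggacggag
Tsc22d3, chrX:109010035-109010284, minus strand: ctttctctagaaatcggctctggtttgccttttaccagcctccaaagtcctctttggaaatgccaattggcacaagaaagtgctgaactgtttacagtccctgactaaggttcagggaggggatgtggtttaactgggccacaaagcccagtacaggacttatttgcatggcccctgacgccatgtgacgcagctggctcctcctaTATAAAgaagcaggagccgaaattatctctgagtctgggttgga
Sgk1, chr1:24804832-24805081, minus strand: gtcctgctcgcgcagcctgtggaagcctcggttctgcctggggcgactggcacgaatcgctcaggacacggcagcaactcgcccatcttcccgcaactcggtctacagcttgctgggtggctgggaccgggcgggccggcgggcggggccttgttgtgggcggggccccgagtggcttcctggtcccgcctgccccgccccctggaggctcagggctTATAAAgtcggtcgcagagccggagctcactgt
The hexamer TGTTCT that the receptor recognises, searched on both strands, was in 0 of the 11 windows and in 20.7% of all 33469 promoters in the table. Its inverted repeat with 3 bases between the copies, which contains the hexamer, was in 0.0149% of all promoters. The same repeat without its outermost bases and with 1 inner base of each copy left free was in 0 of the 11 windows and in 0.439% of all promoters. TATAAA was in 4 of the 11 windows (14.2% of all promoters): the Tsc22d3 window shown, where it starts 44 bases before the start site, the Sgk1 window shown, where it starts 33 before it, a further Sgk1 start and the Errfi1 start. Receptor sites that lie farther away or in introns are outside these windows.

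Levels are given as CPM, the reads on a gene as a share of a library's reads on all genes, scaled between libraries by edgeR's TMM method. They can be compared between libraries for 1 gene, but not between genes, since longer genes collect more reads. The 16 libraries held 14199422 to 49937173 reads on genes, and the members had between 143 counts (Tsc22d3) and 61529 counts (Errfi1) in a library, so all 8 passed the filter on low counts in every comparison. Within a group, libraries had a mean correlation with their own group of 0.969 to 0.995, lowest in Isoflurane + sepsis library 4 and in Propofol + sepsis library 10. Hepatocyte markers (7 of 7 detected) summed to 164152 to 174316 CPM in isoflurane controls and 147212 to 162469 in Isoflurane + sepsis, without overlap. They summed to 131160 to 142795 CPM in propofol controls and 129285 to 136016 in Propofol + sepsis. In the sepsis tests described below, 1 of these 7 rose and 2 fell under isoflurane, and 1 rose and 1 fell under propofol. Neutrophil markers (6 of 6) summed to 17.5 to 20.5 CPM in isoflurane controls and 36.3 to 116 in Isoflurane + sepsis, and to 18.5 to 25.3 in propofol controls and 36.6 to 52.1 in Propofol + sepsis. Endothelial markers (5 of 5) summed to 159 to 195 CPM in isoflurane controls and 116 to 131 in Isoflurane + sepsis, and to 181 to 214 in propofol controls and 153 to 158 in Propofol + sepsis. In the same tests, 0 of these 5 endothelial markers rose and 3 fell under isoflurane, while 2 rose and 2 fell under propofol. Stellate cell markers (5 of 5) summed to 296 to 331 CPM in isoflurane controls and 203 to 471 in Isoflurane + sepsis, the 471 being library 4. They summed to 277 to 296 CPM in propofol controls and 224 to 240 in Propofol + sepsis, without overlap. Of these markers 2 rose and 1 fell under isoflurane, and 0 rose and 3 fell under propofol. Kupffer cell markers (5 of 5) summed to between 180 and 276 CPM throughout. Among them 3 rose and 1 fell under isoflurane, and 1 rose and 1 fell under propofol. Of 6 adrenal markers, Cyp11a1, Cyp11b1 and Mc2r were at 0 in every library, and the list summed to 0.875 to 2.27 CPM. Star averaged 0.617 CPM in isoflurane controls and 0.994 in Isoflurane + sepsis (adjusted p = 0.0398 in edgeR). Cyp21a1 averaged 0.648 and 0.241 CPM there and was not tested, as it failed the filter on low counts. In propofol controls and Propofol + sepsis, Star averaged 0.454 and 0.683 CPM and Cyp21a1 0.969 and 0.524. Neither of these propofol differences passed in edgeR (adjusted p = 0.114 and 0.112). All of these levels are near the floor. Bulk liver cannot tell fewer cells of a type from less RNA per cell, and the part of these shifts in the members' values was not tested.

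A gene is said to have risen or fallen where edgeR's quasi-likelihood test, adjusted over all genes by the Benjamini-Hochberg method, gave an adjusted p below 0.05. Fold changes are on the log2 scale with their standard error (SE). Under isoflurane, 3 of the 8 members passed when septic liver was set against controls: Nr3c1 rose, and Fkbp5 and Tsc22d3 fell. That test passed 50.0% of all 10361 genes (25.7% higher and 24.4% lower), so 3 of 8 is not more than the share over the whole liver. In 3 members the groups did not overlap, Fkbp5, Tsc22d3 and Klf9, where that held for 48.8% of all genes. Under propofol 2 of 8 passed, Sgk1 upward and Tsc22d3 downward, where 42.1% of 10348 genes did (20.4% higher and 21.7% lower). The groups did not overlap for 2 members, Sgk1 and Hsd11b1, against 41.6% of all genes. The members' median absolute log2 change was 0.44 under isoflurane (0.36 over all genes) and 0.12 under propofol (0.27 over all genes).

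**Figure D1:**
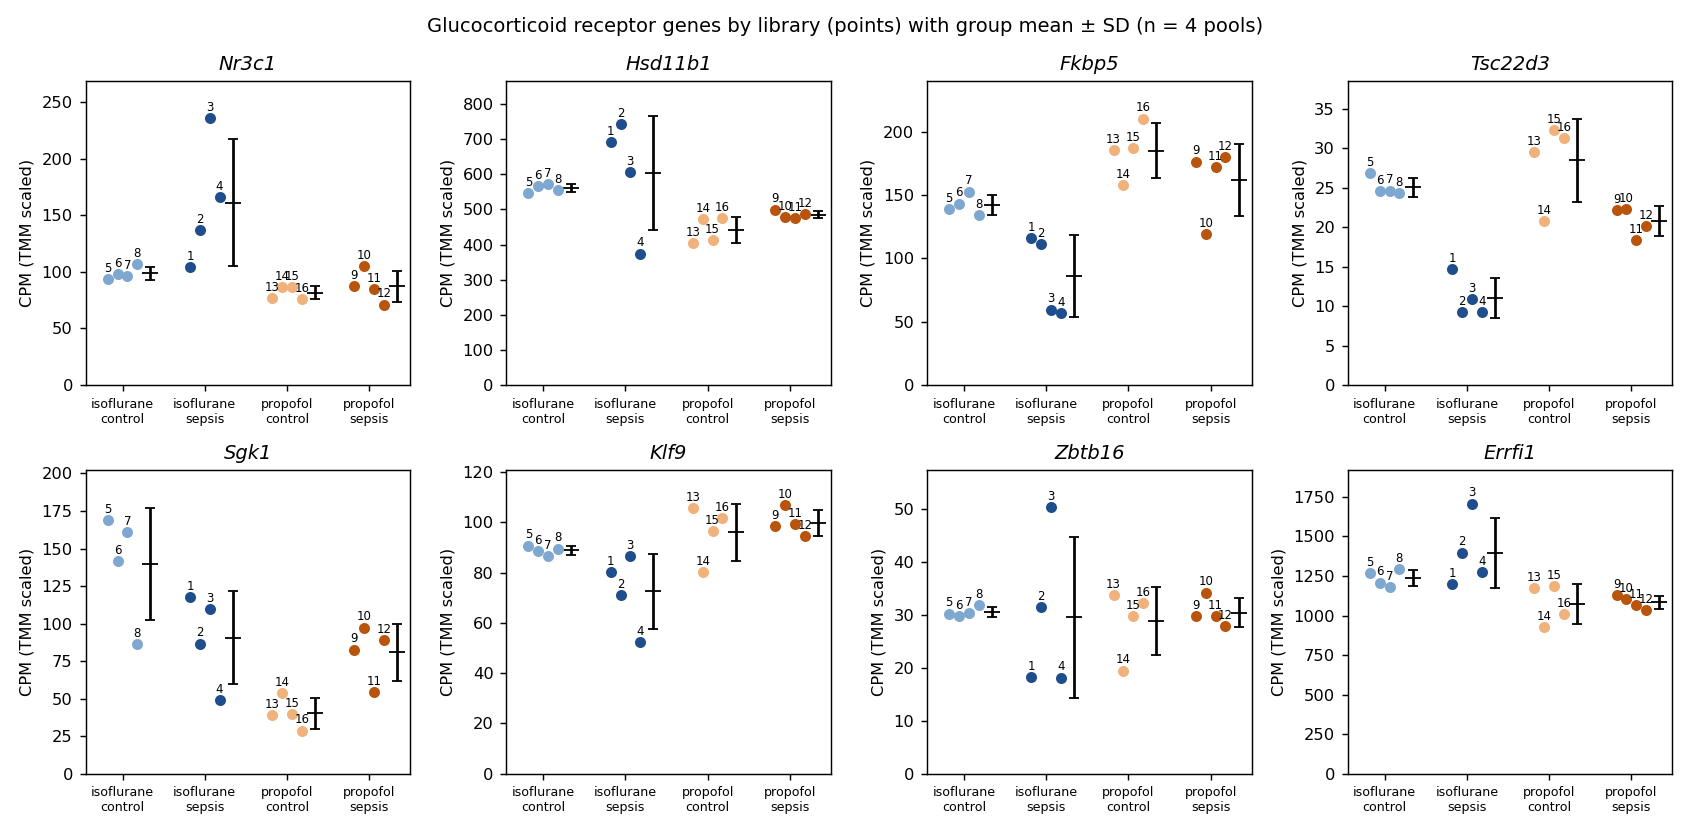
Level of each of the 8 genes in CPM (vertical axes, from 0) in the 4 groups, with 1 numbered point per library and the group mean ± SD (n = 4 pools of 3 rats) beside the points. Tsc22d3 is lower in both septic groups, the Sgk1 mean goes in opposite directions under the 2 anesthetics, and the 4 Isoflurane + sepsis libraries are the most spread for Nr3c1, Fkbp5, Zbtb16 and Hsd11b1.

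Nr3c1, the receptor gene itself, stood at 93.4, 98.4, 96.1 and 107 CPM in the isoflurane controls (libraries 5 to 8). In Isoflurane + sepsis it stood at 104, 137, 236 and 166 CPM in libraries 1 to 4. Library 1 lay inside the control range and library 3 was the highest of the series, so the groups overlapped by 1 library. The mean went from 98.7 ± 5.83 to 161 ± 56.1 CPM (SD, n = 4), a log2 fold change of 0.73 (SE 0.221, adjusted p = 0.0225). Without library 3 the change was still called. It was no longer called without control library 5, 6 or 7, with adjusted p-values of 0.0587, 0.0521 and 0.0580, while the fold change stayed near 0.7.

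Under propofol the receptor gene stood at 77.2, 86.8, 86.5 and 75.9 CPM in controls (libraries 13 to 16) and at 87.2, 105, 85.2 and 71.1 CPM in Propofol + sepsis (libraries 9 to 12). Septic libraries lay below, inside and above the control range. The log2 fold change was 0.10 (95% interval -0.16 to 0.36, adjusted p = 0.521). The interaction, which is the isoflurane response minus the propofol response in 1 fit of all 16 libraries, was 0.61 for Nr3c1 (SE 0.259, adjusted p = 0.173), so the responses were not shown to differ. It was called without library 1 (adjusted p = 0.0253).

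Hsd11b1, which turns inactive 11-keto steroid back into active glucocorticoid and is abundant in hepatocytes, held a narrow range in isoflurane controls, at 547, 568, 571 and 556 CPM. In Isoflurane + sepsis it was 692, 744, 607 and 375 CPM, so 3 libraries were above every control and library 4 was below all of them. The log2 fold change was 0.12 (SE 0.176, adjusted p = 0.591). Library 4 decided this result: without it the change was 0.29 with an adjusted p of 0.00998. Under propofol, controls held 404, 473, 413 and 475 CPM and septic livers 499, 479, 475 and 487 CPM. The septic group lay just above the controls with no overlap, yet the log2 difference of 0.14 (SE 0.0719) did not pass, with an adjusted p of 0.143.

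Tsc22d3 was the member that fell under both anesthetics. The isoflurane controls held 26.8, 24.5, 24.6 and 24.3 CPM, and the Isoflurane + sepsis libraries 14.6, 9.25, 10.9 and 9.19 CPM. Every septic library was far below every control. The SD was 1.20 CPM in controls and 2.55 CPM in septic livers (n = 4), and the log2 fold change was -1.17 (SE 0.141, adjusted p = 0.000324). This call held under all 17 alternative settings tried, which left the log2 value between -1.33 and -1.10.

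Under propofol the fall of Tsc22d3 was smaller. Controls held 29.5, 20.8, 32.3 and 31.3 CPM, and Propofol + sepsis 22.1, 22.3, 18.3 and 20.1 CPM. Control library 14 lay inside the septic range and the other 3 controls were above it. The log2 fold change was -0.46 (SE 0.133, adjusted p = 0.0211), and it was lost without library 11, 12, 15 or 16, with adjusted p-values from 0.0526 to 0.0594. The difference between the 2 responses, -0.72 (SE 0.208), did not pass in edgeR (adjusted p = 0.0679) and did in DESeq2 (adjusted p = 0.0243).

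Fkbp5, the feedback co-chaperone, stood at 139, 143, 153 and 134 CPM in isoflurane controls. In Isoflurane + sepsis it split into pairs, with 116 and 111 CPM in libraries 1 and 2 and 59.5 and 56.5 CPM in libraries 3 and 4. All 4 were below every control. The mean went from 142 ± 7.94 to 85.8 ± 32.2 CPM (SD, n = 4), a log2 fold change of -0.72 (SE 0.226, adjusted p = 0.0263). Without library 3 it was -0.58 with an adjusted p of 0.0547, and without control library 5, 6 or 7 the adjusted p was 0.0529, 0.0572 or 0.0659. In the same 4 libraries Nr3c1 was at its 2 highest levels in libraries 3 and 4, where Fkbp5 was at its 2 lowest.

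Under propofol Fkbp5 stood at 185, 158, 187 and 210 CPM in controls and at 176, 119, 172 and 180 CPM in septic livers. Library 10 was below every control and the other 3 septic libraries lay inside the control range. The log2 fold change was -0.19 (95% interval -0.48 to 0.09, adjusted p = 0.249), and the difference between the responses was -0.53 (SE 0.282, adjusted p = 0.265).

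Sgk1, a kinase best known for keeping sodium channels at the cell surface, was the member whose responses differed in the interaction test. In isoflurane controls it stood at 169, 142, 161 and 86.3 CPM and in Isoflurane + sepsis at 118, 86.7, 110 and 48.9 CPM. Control library 8 was well below the other controls, at the level of septic library 2, so the groups overlapped. The log2 fold change was -0.61 (95% interval -1.25 to 0.04, adjusted p = 0.105). Without library 8 it was -0.78 and passed, with an adjusted p of 0.0434.

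In propofol controls Sgk1 was at 39.2, 53.5, 39.6 and 28.6 CPM, the lowest of the 4 groups. In Propofol + sepsis it was at 82.6, 97.2, 54.2 and 89.1 CPM, each above every control, although library 11 exceeded control library 14 by little. The mean went from 40.3 ± 10.2 to 80.8 ± 18.7 CPM (SD, n = 4), a log2 fold change of 1.01 (SE 0.213, adjusted p = 0.00432) that was called under all 17 alternatives. The responses differed by -1.63 (SE 0.385, adjusted p = 0.0403), and Sgk1 was the only member called in that test, which passed 2.72% of 10621 genes (1.66% as higher and 1.06% as lower under isoflurane). Leaving out 1 library ended that call in 10 of 16 fits, with adjusted p-values of 0.0599 to 0.0862 and a difference that stayed between -1.80 and -1.42 in all of them. Those 10 fits were without library 2, 3, 5, 6, 7, 9, 12, 13, 15 or 16.

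**Figure D2:**
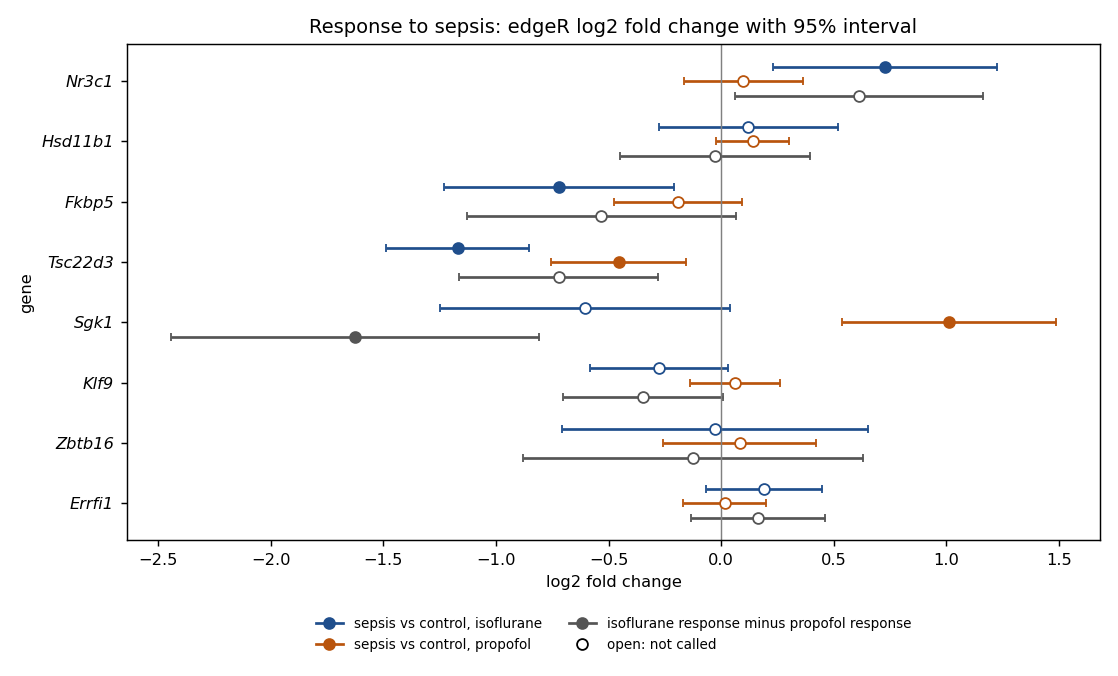
Log2 fold change (horizontal axis) of each gene from edgeR with its 95% interval, for sepsis against control under isoflurane, the same under propofol, and the isoflurane response minus the propofol response. Filled points passed an adjusted p of 0.05. Sgk1 lies on opposite sides of 0 under the 2 anesthetics, and Tsc22d3 lies below 0 under both.

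Klf9, a transcription factor that is a sensitive target of the receptor, was at 90.7, 88.6, 86.5 and 89.6 CPM in isoflurane controls and at 80.2, 70.9, 86.5 and 52.4 CPM in septic livers. The septic libraries ended just below the controls, library 3 at the level of control library 7 to 3 digits. The log2 difference was -0.28 (SE 0.135, adjusted p = 0.117), and without library 3 it was -0.38 and called (adjusted p = 0.0340). Under propofol controls held 80.2 to 106 CPM and septic livers 94.5 to 107 CPM. These ranges overlapped, with a log2 difference of 0.06 (95% interval -0.14 to 0.26, adjusted p = 0.608).

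Zbtb16 (PLZF), a zinc finger repressor, varied little between isoflurane controls, at 30.3, 29.8, 30.4 and 31.9 CPM. In Isoflurane + sepsis it was at 18.3, 31.5, 50.5 and 18.2 CPM, with libraries 1 and 4 below every control and library 3 above all other libraries of the series. The mean hardly moved (log2 fold change -0.03, 95% interval -0.71 to 0.65, adjusted p = 0.950), and its sign turned without library 1 or library 4. Under propofol, controls ranged from 19.5 to 33.7 CPM and septic livers from 27.9 to 34.3 CPM, with a log2 difference of 0.08 (95% interval -0.26 to 0.42, adjusted p = 0.691).

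Errfi1, an inhibitor of EGF receptor signaling, was at 1269, 1208, 1181 and 1292 CPM in isoflurane controls and at 1200, 1397, 1708 and 1276 CPM in septic livers. Libraries 2 and 3 were above every control and libraries 1 and 4 were among them. The log2 difference was 0.19 (95% interval -0.07 to 0.45, adjusted p = 0.191). Under propofol controls ranged from 926 to 1184 CPM and septic livers from 1034 to 1127 CPM. The log2 difference of 0.02 had a 95% interval of -0.17 to 0.20 (adjusted p = 0.884).

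The members were more uneven in Isoflurane + sepsis than elsewhere. Their median coefficient of variation there was 30.5%, against 16.9% over all genes tested, while in isoflurane controls it was 4.49% against 6.92%. In propofol controls it was 11.7% against 10.2%, and in Propofol + sepsis it was 8.99%, below that of all genes. The unevenness had a pattern by library. Isoflurane + sepsis library 4 was the lowest of its group for 6 of the 8 members and the lowest of all 16 libraries for 5. Library 3 was the highest of its group for 4 members, and for Nr3c1, Zbtb16 and Errfi1 the highest of all 16. Relative to the mean of the isoflurane controls, library 4 was at -1.51 on the log2 scale for Sgk1 and 0.75 for Nr3c1, and library 1 at -0.24 and 0.08. Without library 4 the number of members called under isoflurane was 4, and without library 3 it was 3.

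**Figure D3:**
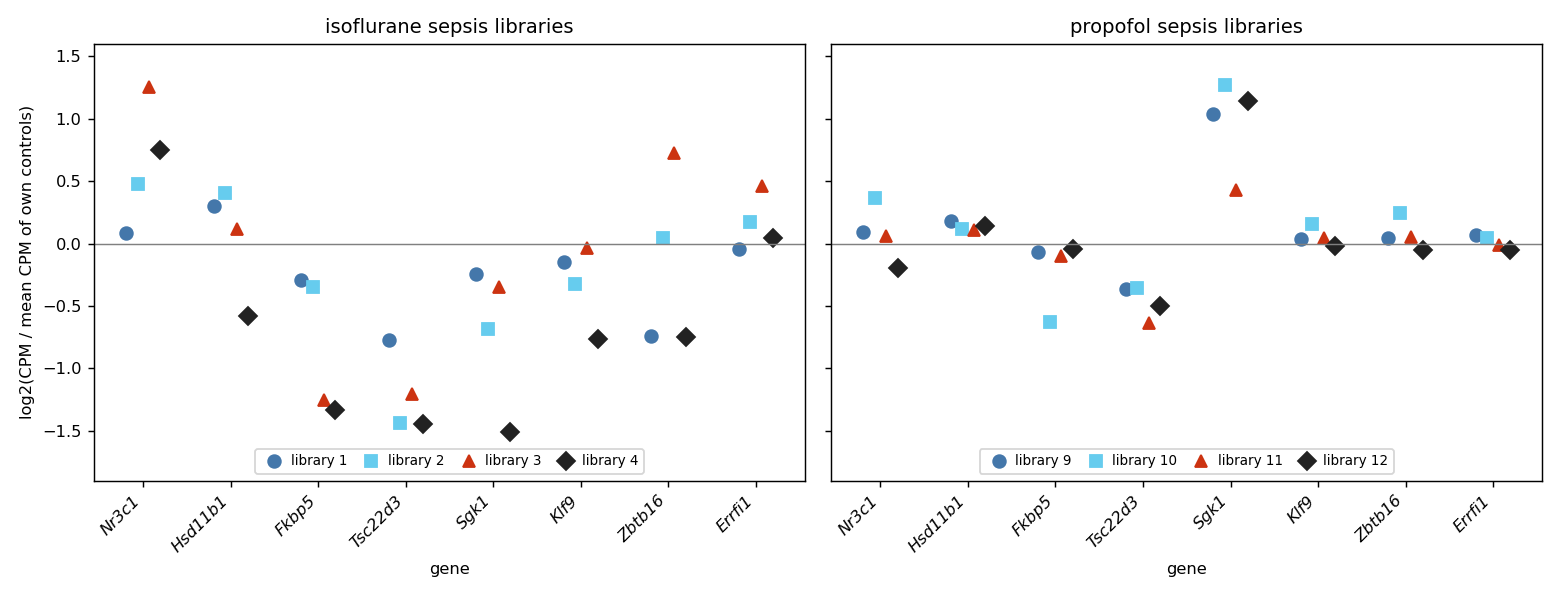
Log2 ratio (vertical axis) of each septic library's CPM to the mean CPM of the 4 controls under the same anesthetic, for the 8 genes, with Isoflurane + sepsis libraries 1 to 4 on the left and Propofol + sepsis libraries 9 to 12 on the right. Library 4 (diamonds, left) sits lowest for most genes, library 3 (triangles, left) highest for Nr3c1, Zbtb16 and Errfi1, and on the right only Sgk1 is shifted upward by over 0.4 in every library.

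The control groups of the 2 anesthetics also differed. Between the control groups 5 of the 8 members passed, where 43.3% of 10314 genes did (21.6% higher and 21.7% lower): Sgk1, Hsd11b1, Nr3c1 and Errfi1 were higher under isoflurane and Fkbp5 was lower. Sgk1 differed most, by 1.80 on the log2 scale (SE 0.222, adjusted p = 0.000140), and its control ranges of 86.3 to 169 CPM and 28.6 to 53.5 CPM were far apart. Hsd11b1 differed by 0.35 (SE 0.0630, adjusted p = 0.00132), Nr3c1 by 0.28 (SE 0.0632, adjusted p = 0.00484) and Fkbp5 by -0.37 (SE 0.0814, adjusted p = 0.00399), each with no overlap between control groups. With Sgk1 these 4 members did not overlap, against 40.3% of all genes. Errfi1 differed by 0.21 (SE 0.0759, adjusted p = 0.0434) with overlap, a call lost in 8 of 17 alternatives, among them the fits without library 5, 6, 7, 8, 14 or 16. Tsc22d3 (-0.18, 95% interval -0.44 to 0.07), Klf9 (-0.11, -0.27 to 0.06) and Zbtb16 (0.09, -0.20 to 0.38) did not pass. Hepatocyte markers summed to 164152 to 174316 CPM in isoflurane controls and to 131160 to 142795 CPM in propofol controls, and their part in these differences was not tested.

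These values depend on the scaling, because TMM factors were 0.954 to 0.984 in isoflurane controls and 1.06 to 1.09 in propofol controls. With library totals alone the median of all genes moved by -0.15 on the log2 scale, and the share of called genes that were higher under isoflurane went from 49.8% to 22.9%. Nr3c1 (0.14, adjusted p = 0.0906) and Errfi1 (0.07, adjusted p = 0.526) were then not called, Tsc22d3 and Klf9 were called as lower, and Zbtb16 turned to -0.06. Sgk1, Hsd11b1 and Fkbp5 kept their calls under that scaling. In a fit of all 16 libraries, which shares the wider spread of the septic livers, only Sgk1 was called.

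Between the septic groups 4 of 8 members passed, where 19.3% of 10272 genes did (10.6% higher and 8.66% lower). Nr3c1 was higher under isoflurane by 0.89 on the log2 scale (SE 0.238, adjusted p = 0.0336), and Errfi1 by 0.37 (SE 0.112, adjusted p = 0.0479). Fkbp5 was lower by -0.91 (SE 0.253, adjusted p = 0.0381) and Tsc22d3 by -0.91 (SE 0.159, adjusted p = 0.0126). The septic groups did not overlap for Fkbp5, Tsc22d3, Klf9 and Errfi1, 4 of 8, against 25.1% of all genes. The Tsc22d3 call held in all 17 alternatives. Those of Nr3c1 and Fkbp5 were lost without library 3, 4, 9, 11 or 12, that of Fkbp5 also with no filter on low counts (adjusted p = 0.0506), and that of Errfi1 in 12 of the 17. Sgk1 differed by 0.17 between the septic groups (95% interval -0.45 to 0.78, adjusted p = 0.676). Its means of 90.7 and 80.8 CPM were thus not told apart, while those of the control groups were. Klf9 differed by -0.46 (adjusted p = 0.0514), Hsd11b1 by 0.32 (adjusted p = 0.215) and Zbtb16 by -0.04 (adjusted p = 0.934). This comparison shares its septic libraries, and the one before it the control libraries, with the sepsis comparisons.

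**Figure D4:**
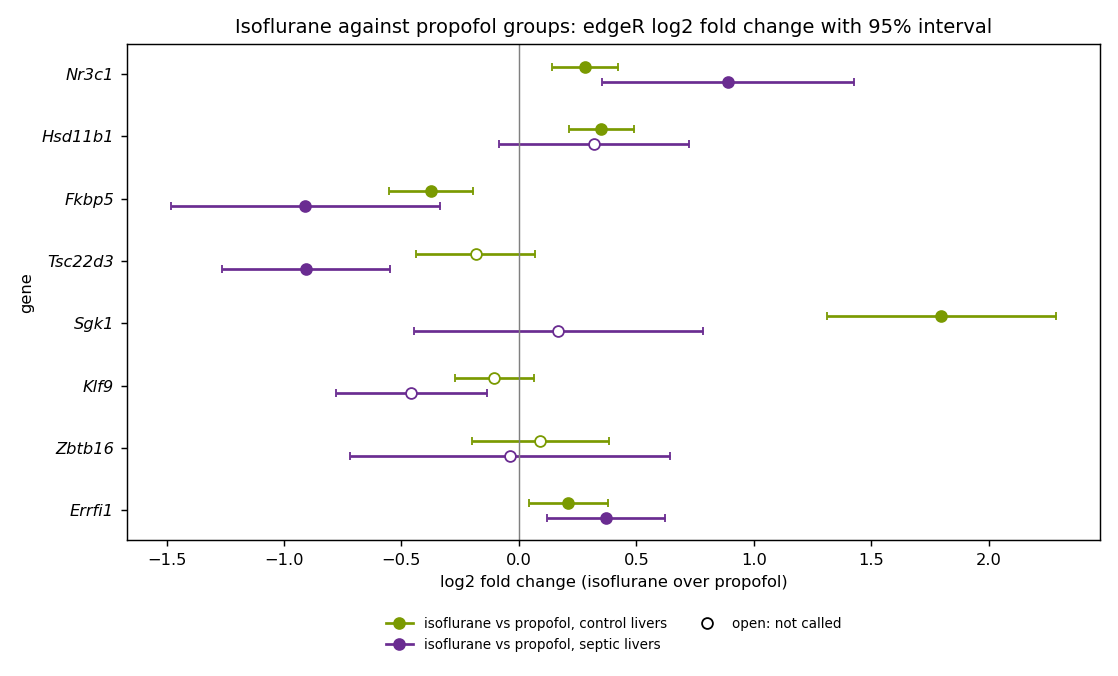
Log2 fold change of isoflurane over propofol groups (horizontal axis) from edgeR with its 95% interval, for control livers and for septic livers. Filled points passed an adjusted p of 0.05. Sgk1 is at 1.80 between controls and 0.17 between septic livers, and Tsc22d3 is at -0.18 between controls and -0.91 between septic livers.

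The order of the group means differed from gene to gene. Nr3c1, Errfi1 and Hsd11b1 were highest in Isoflurane + sepsis, then in isoflurane controls, then in Propofol + sepsis and lowest in propofol controls. For Nr3c1 every neighbouring pair in that order overlapped, while for Errfi1 and Hsd11b1 isoflurane controls and Propofol + sepsis did not. Fkbp5 and Tsc22d3 were highest in propofol controls and lowest in Isoflurane + sepsis, and the lowest group was clear of its neighbour for both. Klf9 was also lowest in Isoflurane + sepsis. Sgk1 was lowest in propofol controls and clear of its neighbour there. Zbtb16 had means of 28.9 to 30.6 CPM in all 4 groups, each overlapping the next.

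Of the rest of the pathway, 56 of 60 listed genes were in the files. The lists, like the members, were chosen with earlier results of these data known. Their shares beside those of all genes are thus a description and not an independent test. Among 17 genes of the receptor's complex and its coregulators, 16 were tested under isoflurane, of which 5 rose and 2 fell, or 43.8% called against 50.0% of all genes. Nrip1, a corepressor of nuclear receptors, was at 17.4 CPM or less in controls and reached 119 CPM in septic livers (log2 fold change 1.95, SE 0.398, adjusted p = 0.00389). The chaperone Hsp90aa1 rose by 0.51 and the acetyltransferase Crebbp by 0.47. Fkbp4, the co-chaperone that promotes nuclear transport of the receptor, fell by 1.22 under isoflurane (SE 0.211, adjusted p = 0.00174) and by 0.76 under propofol (SE 0.162, adjusted p = 0.00473). Nr3c2, the mineralocorticoid receptor, which binds the same hormone, fell by 1.13 (SE 0.148, adjusted p = 0.000466) and by 0.83 (SE 0.142, adjusted p = 0.00145). Under propofol 1 of 16 rose, the coactivator subunit Med1 (0.36), and 3 fell, the third being the coactivator Ncoa2 (-0.35), so that 4 of 16 were called against 42.1% of all genes. The list's median was 0.04 under isoflurane and -0.04 under propofol, close to that of all genes (0.01 and 0.00).

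The genes of hormone handling fell or did not pass in edgeR. Under isoflurane 3 of 6 fell and 0 rose, and under propofol 4 of 5 fell and 0 rose, with list medians of -0.60 and -0.90. Over all genes 24.4% and 21.7% were called lower, and the 3 of 6 called under isoflurane is the 50.0% called in either direction. Abcb1a, a transporter that pumps steroids out of cells, was at 15.8 to 18.1 CPM in isoflurane controls and 2.23 to 6.21 CPM in septic livers (log2 fold change -2.11, SE 0.254, adjusted p = 0.000325). Under propofol it was at 7.87 to 19.8 CPM in controls and 1.26 to 3.76 CPM in septic livers (-2.37, SE 0.390, adjusted p = 0.00115). Neither pair of groups overlapped. Akr1d1, which starts the breakdown of steroids by reducing the A ring, fell by 0.60 and 1.11 on the log2 scale. H6pd, which supplies the NADPH that Hsd11b1 needs, fell by 0.52 and 0.25, beside the Hsd11b1 differences of 0.12 and 0.14 that did not pass. Srd5a1, a steroid reductase, fell by 0.90 under propofol, and its difference of -1.04 under isoflurane did not pass (adjusted p = 0.0721).

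Of 17 metabolic targets tested under isoflurane, 5 rose and 3 fell, and of 17 under propofol 6 rose and 1 fell. Together 47.1% and 41.2% were called, near the 50.0% and 42.1% of all genes. Igfbp1, an insulin-like growth factor binding protein of fasting and stress, rose by 2.24 under isoflurane (SE 0.329, adjusted p = 0.000801), with controls at 701 to 1262 CPM and septic livers at 2594 to 7915 CPM. It rose by 2.71 under propofol (SE 0.463, adjusted p = 0.00144), with controls at 99.4 to 566 CPM and septic livers at 1373 to 2598 CPM. Cdkn1a, a cell cycle inhibitor, rose by 2.19 and 1.47. Under isoflurane Pdk4, which spares glucose by blocking pyruvate oxidation, rose by 3.60 with a wide error (SE 0.934). Its septic libraries ran from 10.1 to 511 CPM and overlapped the controls, which held 11.4 to 16.8 CPM. Ddit4, an inhibitor of mTOR signaling, rose by 2.35 with septic libraries from 11.7 to 128 CPM. Their propofol differences of -0.48 and 0.13 did not pass, and the interaction called neither. G6pc, the last enzyme of gluconeogenesis, fell by 1.59, Tdo2, a tryptophan-degrading enzyme, fell by 0.58 and Sesn1 fell by 0.38 under isoflurane. Irs2, an insulin receptor substrate, rose by 1.59 under isoflurane and 1.90 under propofol. Under propofol Sds, a serine-degrading enzyme, rose by 1.50 and Sesn1 fell by 0.46.

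Tat, tyrosine aminotransferase and a classic glucocorticoid target, was singled out after its values were seen, because its gap between the control groups had the direction of the Sgk1 gap. Of the 13 metabolic targets called between controls, 9 were higher and 4 lower under isoflurane, the lower ones being Pdk4 (-2.65), Angptl4 (-2.23), Glul (-1.69) and Ddit4 (-0.82). It was at 2424 ± 81.4 CPM in isoflurane controls and 988 ± 430 in propofol controls, and at 2642 ± 218 and 2442 ± 165 CPM in the septic groups (SD, n = 4). It rose under propofol (log2 fold change 1.31, SE 0.317, adjusted p = 0.00869), while under isoflurane the change was 0.14 (adjusted p = 0.167). The difference of the responses was -1.18 (SE 0.359, adjusted p = 0.0785), which did not pass.

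Most genes that the receptor shares with inflammatory signaling rose. Of 15 tested, 12 rose and 0 fell under isoflurane, and 13 rose and 1 fell under propofol, with list medians of 0.78 and 0.88. Genes called as higher were 25.7% and 20.4% of all genes in these comparisons, but this list was chosen with earlier results of these data known. Lcn2, an iron-binding acute-phase protein, rose by 3.20 (SE 0.189) and 2.24 (SE 0.305). Il1r2, the interleukin-1 decoy receptor, rose by 1.79 and 1.88 from levels of only 1.44 and 1.75 CPM in the controls. Cebpd, an acute-phase transcription factor, rose by 1.59 and 1.93, Cebpb by 1.50 and 0.59, and Bcl6, a transcriptional repressor, by 1.27 and 1.22. Dusp1, Zfp36 and A2m did not pass under isoflurane. Under propofol Dusp1 did not pass and Zfp36, which destabilizes cytokine mRNAs, fell by 0.50. These genes answer cytokines as well as the receptor, and neutrophils also express Lcn2 and Il1r2. Of the 6 neutrophil markers, 4 rose under each anesthetic, and Cxcr2 and Mmp8 did not pass.

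**Figure D5:**
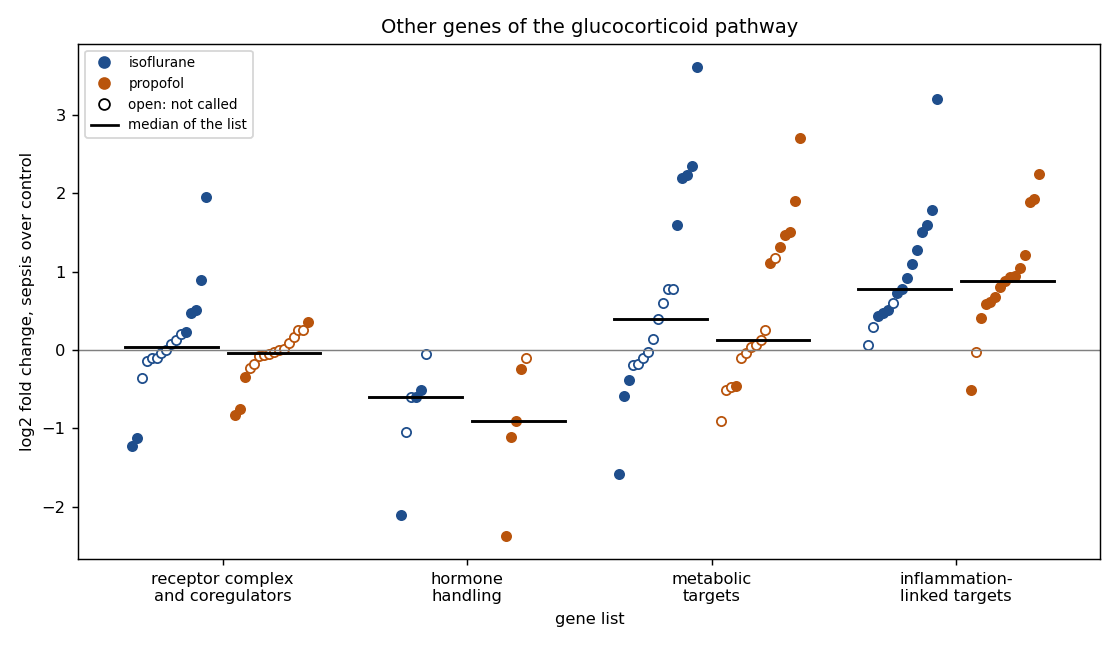
Log2 fold change of sepsis over control (vertical axis) for each tested gene of the 4 pathway lists, under isoflurane and under propofol, with the list median as a bar. Filled points passed an adjusted p of 0.05. The inflammation-linked targets lie mostly above 0 under both anesthetics, the hormone handling genes lie below 0, and the other lists straddle it.

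In the test of the difference between responses, edgeR called 0 of 54 tested pathway genes, 15 had an unadjusted p below 0.05, and DESeq2 called 6. Between the control groups 35 of 54 pathway genes were called, 19 higher and 16 lower under isoflurane, which is 64.8% against 43.3% of all genes. Between septic groups 13 of 53 were called, 6 higher and 7 lower, which is 24.5% against 19.3%. Since the lists were chosen with earlier results of these data known, these shares are not an independent test.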

How the data were processed

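Liver RNA of 16 pools was sequenced single-end from stranded poly(A) libraries. The authors deposited raw counts per gene, 1 file per library. Their processing notes name STAR and the rn5 build. Which program and annotation made the counts, and the versions, is not stated there. Rows that name no gene were left out of library totals. Reads outside genes came to 21.6% to 25.4% and ambiguous reads to 1.07% to 1.35% of a library's reads, on genes or not. Libraries were grouped by GEO's labels. No pair of libraries in a group agreed within sampling noise (chi-square per degree of freedom 3.35 to 96.3). From the counts, edgeR 4.0.16 in R 4.3.3 gave TMM-scaled CPM and quasi-likelihood tests (glmQLFit, glmQLFTest) with filterByExpr at a count of 10 and a total of 15, Benjamini-Hochberg adjustment over all genes tested and a threshold of 0.05. Each pairwise comparison used its own 8 libraries and the interaction all 16. The test was tried on simulated data first. Alternatives were RLE or total scaling, no filter, a filter at a mean CPM of at least 1, and counts thinned to the shallowest library. Further ones were robust dispersion, DESeq2 1.42.0, limma-voom 3.58.1, a 16-library fit and leaving out each library. Counts and intervals over 4 pools a group limit precision. The members and the lists were chosen with earlier results of these data known. All 8 members are named, and of each pathway list by rule at most the 4 called genes with the largest change in each direction in each sepsis comparison. Tat, Angptl4, Glul, Dusp1 and A2m are named outside that rule, and Foxo1 for its correlation with Zbtb16. The result of 1 such gene is not reported here. Promoters came from RefSeq (GRCr8).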

Additional observations from a re-analysis of the deposited data

Results flagged for a closer look

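Over 32 sets of 4 libraries (8 genes in 4 groups), 2 held a library far from the other 3, and chance gives about 1 in 20. Fkbp5 in Propofol + sepsis was at 119 CPM in library 10, while the other 3 libraries held 172 to 180 CPM. Tsc22d3 in isoflurane controls was at 26.8 CPM in library 5, while the other 3 held 24.3 to 24.6 CPM, a gap that is small in size. Sgk1 was picked out because its responses to sepsis under the 2 anesthetics differed in the interaction test, by -1.63 on the log2 scale (adjusted p = 0.0403 in edgeR). The 2 control groups differed by 1.80 and the septic groups by 0.17 (isoflurane over propofol).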

How the results depend on the processing

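No paired analysis was possible because the replicate numbers run from 1 to 16 with no number shared between groups. Over 40 fold changes of single members and their alternatives, 736 values were recomputed: 644 kept direction and call, 56 kept direction and lost the call, 16 gained a call and 20 changed sign. Tsc22d3 under isoflurane and between septic groups, Sgk1 under propofol and Sgk1 between controls kept their calls in all 17 alternatives each.

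At an adjusted p below 0.01, members called came to 1 under isoflurane, 1 under propofol, 0 between septic groups and 0 in the interaction, and pathway genes between septic groups to 2. With all 16 libraries in 1 fit, 1 member and 21 pathway genes were called between controls and 30 pathway genes between septic groups. With DESeq2, 21 pathway genes were called between septic groups, and in the interaction 2 members and 6 pathway genes. With no filter, 2 members were called between septic groups. Leaving out each library gave 1 to 4 members called under isoflurane (1 without library 5, 6 or 7), 1 to 2 under propofol (1 without library 11, 12, 15 or 16), 4 to 6 between controls, 1 to 5 between septic groups and 0 to 3 in the interaction. Between septic groups the count was 1 without library 3, 9, 11 or 12 and 2 without library 4. In the interaction it was 3 without library 1 and 0 in the 10 fits that lost Sgk1. Pathway genes ran from 3 (without library 9, 11 or 12) to 18 between septic groups, with 8 without library 2. In the interaction they ran from 0 to 7, with 7 without library 1, 2 without library 16 and 1 without library 2, 4, 10 or 14. The cause of these shifts was not tested.

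The changes of sign all concerned values near 0 that were not called. With library totals alone Errfi1 was at -0.039 under propofol and Zbtb16 at -0.055 between controls. Leaving out each library put Zbtb16 between -0.43 and 0.15 under isoflurane, -0.063 and 0.16 under propofol, -0.054 and 0.17 between controls, -0.42 and 0.14 between septic groups and -0.51 and 0.052 in the interaction. Under propofol it put Nr3c1 between -0.011 and 0.19, Klf9 between -0.014 and 0.11 and Errfi1 between -0.045 and 0.062, and in the interaction Hsd11b1 between -0.13 and 0.14. Library totals alone moved the share of called genes that were higher from 51.3% to 43.0% under isoflurane, from 48.4% to 38.3% under propofol and from 55.1% to 21.4% between septic groups.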

Other observations

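The genes whose levels followed each member most closely over the 16 libraries were looked up among 8892 genes, by Pearson's r of log2 CPM. The libraries share groups and depth, so r is a description of these libraries only. The receptor gene Nr3c1 was followed most closely by LOC100365935 (r = 0.972), Heca (0.964) and Zfp36l1 (0.964), the last of which encodes a protein that binds AU-rich mRNAs. For Fkbp5 they were Pigb (0.980), Tfb1m (0.978) and Ddx1 (0.977), and for Tsc22d3 they were Trim25 (0.967), RGD1307947 (0.947) and Ptgfr (0.945). Zbtb16 was followed by Foxo1 (0.906), a transcription factor of fasting that is itself on the metabolic target list, then by Rnf8 (0.815) and Ppara (0.807). Errfi1 was followed by Nt5dc3 (0.951), Magi3 (0.938) and the AP-1 subunit gene Junb (0.930), and Hsd11b1 by Dmgdh (0.922), Tmem38b (0.901) and Igfbp4 (0.878). The closest matches were weaker for Sgk1, led by Tdg (0.852), Zmpste24 (0.840) and Sacm1l (0.832), and for Klf9, led by Uba3 (0.846), Them6 (0.841) and Map1lc3b (0.824).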
